A study of Homo sapiens with 16 samples.

Results

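The 10 genes described here encode the NFAT transcription factors (NFATC1, NFATC2, NFATC3, NFATC4 and NFAT5), the 3 RCAN regulators of calcineurin (RCAN1, RCAN2 and RCAN3) and both broadly used catalytic subunits of calcineurin (PPP3CA and PPP3CB). They were chosen by name and are 10 of the 59081 genes in the table. The 10 genes and the pathway lists used below were chosen with earlier results of these data known. Calcineurin is a calcium-activated and calmodulin-activated protein phosphatase that removes phosphates from NFATC1 to NFATC4 and lets them enter the nucleus. DYRK, GSK3 and casein kinase 1 family kinases put phosphates back and favour export from the nucleus. RCAN proteins bind and restrain calcineurin, and one RCAN1 promoter is itself a classical NFAT target. NFAT5 lacks the calcineurin docking region of the other family members and is best known for switching on osmoprotective genes in hypertonic medium.

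RNA was sequenced from U2OS, a human osteosarcoma cell line, in 4 groups of 4 libraries each. All cultures were confluent and spent 48 h without serum. For the last 24 h they received 10 µM harmine hydrochloride, or the matching volume of its vehicle water, and 25 µM INDY, or the matching volume of its vehicle DMSO. Harmine, a beta-carboline alkaloid, and INDY, a benzothiazole, are both inhibitors of the kinase DYRK1A, and they differed here in dose and in vehicle. The question put to these genes was whether the mRNAs of a pathway that DYRK1A acts on changed when the cells were given each compound.

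Library totals were 44301910 to 65889667 estimated counts, and all 10 genes passed the filter on low counts in a table where 20446 genes were tested. Levels are given as CPM (counts scaled to a common library size) after TMM normalization, in the order of replicates 1 to 4. A gene was called higher or lower at an adjusted p under 0.01 in edgeR's quasi-likelihood test, and fold changes are on the log2 scale. Nothing in the labels says whether each library had its own culture. The p-values therefore rest on differences between libraries that may be technical. Water replicates 1 and 4 and INDY replicates 1 and 3 stood apart from the other libraries of their groups. DMSO replicate 1 did so to a lesser degree. Calls of the 10 genes that were lost or gained without either the water or the INDY pair are given with that value. Of the 7 mesenchymal and osteoblast markers, VIM, SPARC and COL1A1 carried most of a summed level of 2757 to 3580 CPM over all libraries, while the osteoblast marker BGLAP and the collagen gene COL1A2 were close to 0. Summed epithelial markers reached at most 4.42 CPM and summed blood markers at most 2.31 CPM. In RNA from whole cultures, fewer cells that use a gene and less RNA per cell cannot be told apart.

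The RCAN1 gene lies on the minus strand of GRCh38 at chr21:34513142-34615113 and has several start sites. The RefSeq promoter table (GRCh38.p14) held 20 start windows for 7 of the 10 genes. NFAT binds DNA at the core GGAAA, which was searched for on both strands, as GGAAA or TTTCC, in the 250 bases before each start. At least 1 match stood in 8 of these 20 windows (40%) and in 55.7% of all 35116 windows. The following pair of RCAN1 windows is shown because the gene's start sites differ in this core, with matches in capitals.

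RCAN1 internal start, chr21:34526823-34527072, minus strand: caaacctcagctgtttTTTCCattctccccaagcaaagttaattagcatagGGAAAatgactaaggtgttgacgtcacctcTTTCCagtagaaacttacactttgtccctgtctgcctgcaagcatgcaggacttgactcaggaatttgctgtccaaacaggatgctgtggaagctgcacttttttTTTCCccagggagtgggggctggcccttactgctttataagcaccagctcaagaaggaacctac
RCAN1 first start, chr21:34615114-34615363, minus strand: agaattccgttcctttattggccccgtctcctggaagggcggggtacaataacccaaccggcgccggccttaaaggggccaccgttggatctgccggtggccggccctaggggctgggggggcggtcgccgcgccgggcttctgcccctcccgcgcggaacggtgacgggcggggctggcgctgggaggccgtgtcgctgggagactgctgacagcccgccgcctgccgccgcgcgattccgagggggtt

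The internal start window had 4 matches, a number reached by 1.87% of all windows, at -234, -199, -169 and -64 bases from the start. The window of the first start, which belongs to the MANE Select transcript, had 0 matches, and so did the remaining 4 RCAN1 windows. A match in these letters is a description and not a binding site. Counts in the table are per gene, so the transcripts from these starts could not be told apart in any RCAN1 value below.

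Levels per kilobase of annotated exon ordered the 10 genes in a broadly similar way in all groups. The length used was that of all annotated exons of a gene together, which can exceed that of the transcripts present. The order between genes is therefore approximate and depends on the annotation. PPP3CA was highest with water (19.2 CPM per kb), followed by PPP3CB (7.80), RCAN1 (6.56), NFATC3 (5.19), NFATC4 (4.57) and NFAT5 (3.56). RCAN3 (3.01), NFATC1 (2.86) and RCAN2 (2.80) came next with water, and libraries of neighbours in this run of 3 genes overlapped. NFATC2 was lowest in every group, at 0.557 CPM per kb with harmine, 0.689 with water, 0.558 with INDY and 0.518 with DMSO. PPP3CA and PPP3CB were first and second in every group, and the order below them changed with treatment. With harmine, NFATC3 (5.57 CPM per kb) stood above RCAN1 (4.82), and with water RCAN1 stood above NFATC3. With INDY, NFAT5 (4.32 CPM per kb) stood above NFATC4 (2.83), and with DMSO NFATC4 (3.94) stood above NFAT5 (3.07).

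**Figure D1:**
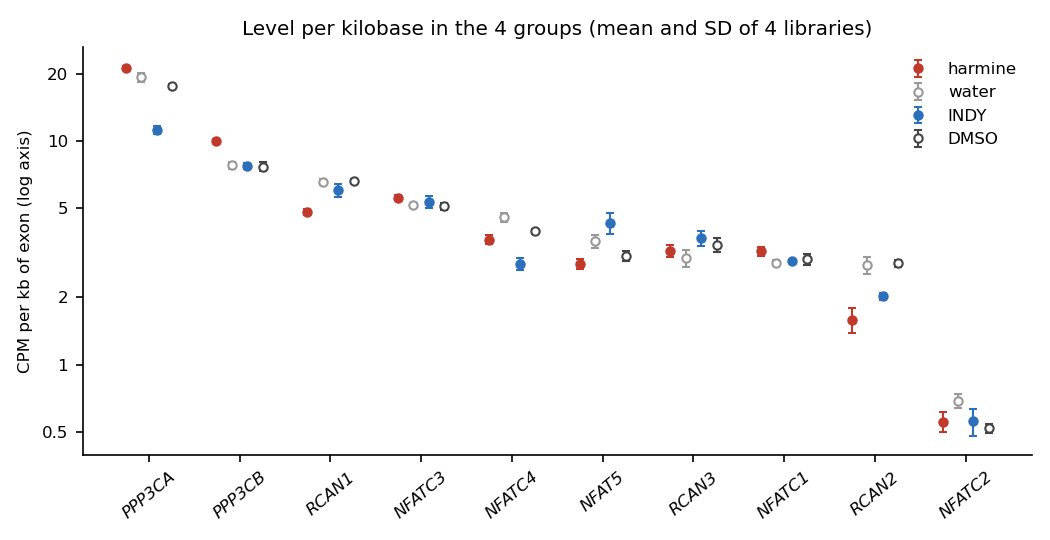
Level of each gene in CPM per kilobase of all annotated exons (log axis), ordered by the level with water. Points are means and bars SDs of 4 libraries in the harmine, water, INDY and DMSO groups. PPP3CA lies highest in all 4 groups, at 21.3 CPM per kb with harmine and 11.2 CPM per kb with INDY, and NFATC2 lies lowest.

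With harmine, 3 of the 10 genes were called higher (NFATC1, PPP3CA and PPP3CB), 4 lower (NFATC4, NFAT5, RCAN1 and RCAN2) and 3 neither way, against 24.9% of all genes tested called higher and 22.8% called lower. With INDY, 1 gene was higher (NFAT5), 4 were lower (NFATC4, RCAN1, RCAN2 and PPP3CA) and 5 were called neither way, against 33.2% higher and 33.4% lower among all genes tested. These counts were near the shares of all genes and are not a result about the 10 genes as a group. The median log2 fold change of the 10 genes was -0.11 with harmine, where that of all genes was 0.02, and -0.01 with INDY, where that of all genes was -0.01. The groups did not overlap for 9 of the 10 genes with harmine (55.1% of all genes) and for 5 with INDY (67.5% of all genes). Fold changes were small, and only RCAN2 with harmine and PPP3CA with INDY passed 1.5-fold. Of all genes tested, 22.1% reached 1.5-fold with harmine and 38.4% with INDY, whatever their p-value. NFATC4, RCAN1 and RCAN2 were lower with both compounds, NFAT5 was lower with harmine and higher with INDY, and PPP3CA was lower with INDY and higher with harmine. NFATC2, NFATC3 and RCAN3 were called with neither.

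**Figure D2:**
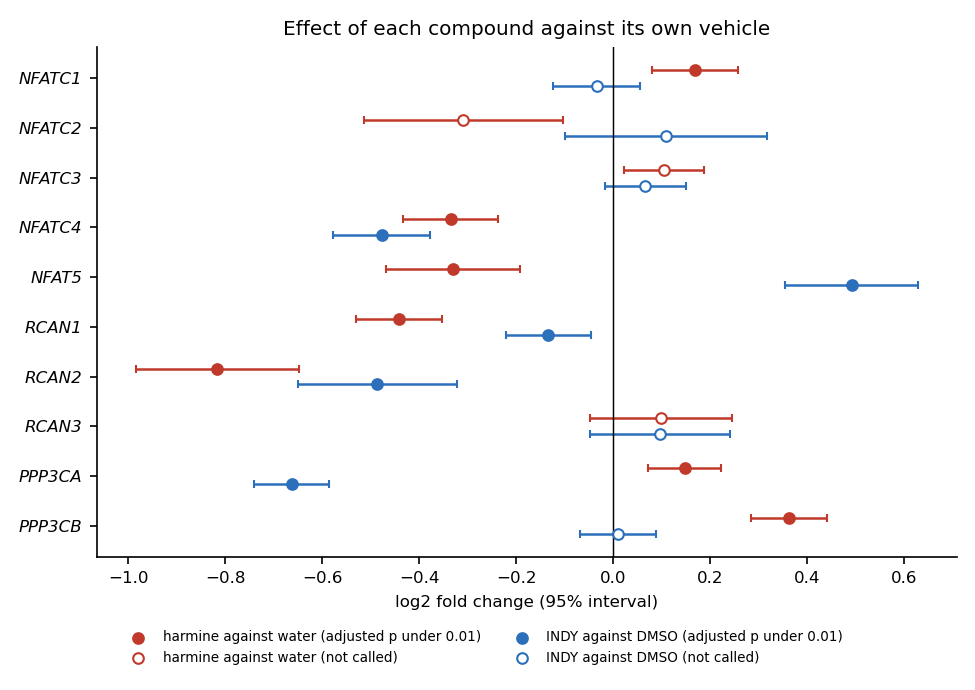
Log2 fold change of each gene with harmine against water and with INDY against DMSO, with 95% intervals derived from edgeR's F statistics. Filled points passed an adjusted p of 0.01. RCAN2 has the lowest value with harmine (-0.82) and PPP3CA the lowest with INDY (-0.66), and NFAT5 and PPP3CA lie on opposite sides of 0 for the 2 compounds.

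A contrast of both effects (INDY against DMSO minus harmine against water) set the compounds side by side as they were given, at their different doses and in their different vehicles. It called 2 genes higher (NFAT5 and RCAN1) and 3 lower (NFATC1, PPP3CA and PPP3CB), against 26.4% and 28.1% of all genes tested. The vehicles themselves differed for few genes at this threshold. DMSO against water called 0 of the 10 genes higher and 1 lower (NFATC4), against 1.58% and 2.71% of all genes tested. NFATC2 (-0.41), NFAT5 (-0.21) and PPP3CA (-0.12) were also lower in DMSO at an edgeR adjusted p under 0.05, but were not called. At an unadjusted p under 0.05 edgeR placed 1 gene higher in DMSO (RCAN3, log2 difference 0.19, adjusted p = 0.0809), and DESeq2 called 0.

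NFATC1, a calcineurin-dependent factor known from osteoclasts, lymphocytes and heart valves, is on chromosome 18. It had 28.4, 30.6, 27.7 and 29.7 CPM with harmine and 26.5, 25.6, 25.1 and 26.6 CPM with water. Every harmine library was above every water library, and the log2 fold change was 0.17 ± 0.04 (SE, edgeR adjusted p = 0.00225). The call was lost without harmine replicate 2 or 4 or water replicate 2 or 3, at 0.13 to 0.14. With INDY it had 26.3, 26.2, 26.7 and 25.8 CPM, against 26.2, 25.6, 26.8 and 29.1 CPM with DMSO. These groups overlapped, with a log2 fold change of -0.03 (edgeR adjusted p = 0.470). The effects of the compounds differed by -0.20 (edgeR adjusted p = 0.00641), a call that did not pass without INDY replicates 1 and 3 (-0.19, edgeR adjusted p = 0.0192). It was also lost without any single INDY library, DMSO replicate 3 or 4, water replicate 2 or 3, or harmine replicate 1, 2 or 4, at -0.20 to -0.16.

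NFATC2, the factor first described in activated T cells, had the lowest level of the family. It had 5.01, 4.82, 3.90 and 4.72 CPM with harmine and 5.56, 6.03, 5.17 and 6.08 CPM with water. The harmine libraries were all below the water libraries, but the log2 fold change of -0.31 ± 0.10 (SE) stood just outside the threshold (edgeR adjusted p = 0.0107). It passed in 14 of 27 alternative settings, among them those without harmine replicate 1 (-0.36), water replicate 3 (-0.37) or any single INDY library (-0.32 to -0.31). It also passed without INDY replicates 1 and 3 (-0.32, edgeR adjusted p = 0.00191), but not without water replicates 1 and 4 (-0.28, edgeR adjusted p = 0.0622). With INDY it had 5.18, 3.94, 5.17 and 4.19 CPM, against 4.16, 4.57, 4.30 and 4.15 CPM with DMSO. INDY replicates 1 and 3 were above all DMSO libraries and replicate 2 was below them, and no change was called (log2 fold change 0.11, edgeR adjusted p = 0.334). Without INDY replicates 1 and 3 the value was -0.08 (edgeR adjusted p = 0.529). DMSO libraries themselves averaged 4.30 ± 0.197 CPM and water libraries 5.71 ± 0.431 CPM (SD, n = 4 each). The log2 difference of -0.41 missed the threshold (edgeR adjusted p = 0.0108). This vehicle difference passed in 11 of 27 alternative settings, among them that without INDY replicates 1 and 3 (-0.41, edgeR adjusted p = 0.00233).

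NFATC3, the calcineurin-dependent factor with the highest level per kilobase here, was called with neither compound. With harmine its range was 47.4 to 50.1 CPM, and with water 44.8 to 46.4 CPM. The ranges did not overlap, but the log2 fold change was only 0.10 (95% interval 0.02 to 0.19, edgeR adjusted p = 0.0295). With INDY it ranged from 43.3 to 49.2 CPM, and with DMSO from 42.8 to 46.4 CPM, with a log2 fold change of 0.07 (95% interval -0.02 to 0.15, edgeR adjusted p = 0.135). INDY replicate 2 was the lowest INDY library, and without it the INDY effect of 0.11 was called (edgeR adjusted p = 0.00879). Without INDY replicates 1 and 3, the highest of the group, it was 0.0044 (edgeR adjusted p = 0.929). Of its transcript sequence, 15.8% of 100-base stretches also occur in other annotated genes.

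NFATC4, which encodes a calcineurin-dependent factor studied in neurons, muscle and heart, was lower with both compounds. It had 30.0, 28.9, 32.1 and 31.1 CPM with harmine, against 39.3, 36.5, 37.8 and 40.5 CPM with water. It had 22.9, 25.5, 24.8 and 22.2 CPM with INDY, against 32.3, 34.4, 33.1 and 33.2 CPM with DMSO. In both comparisons every treated library was below every vehicle library. The log2 fold changes were -0.34 ± 0.05 with harmine and -0.48 ± 0.05 with INDY (SE), with edgeR adjusted p of 6.18e-06 and 3.80e-08. They differed by -0.14 between the compounds (95% interval -0.28 to -0.0013, edgeR adjusted p = 0.0713), which was not called. NFATC4 was also lower with DMSO than with water by -0.21 (edgeR adjusted p = 0.00699), and this vehicle difference was -0.16 without water replicates 1 and 4 (edgeR adjusted p = 0.178). That call was also lost without any single DMSO library, water replicate 1, 3 or 4, or harmine replicate 1 or 4, at -0.23 to -0.19. The table's identifier for NFATC4 is not the one in GENCODE 44, so the gene was placed by its symbol.

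NFAT5, the tonicity-responsive member, moved in opposite directions. It had 59.5, 60.1, 56.4 and 53.6 CPM with harmine, against 76.5, 67.4, 68.2 and 76.8 CPM with water. It had 100, 81.5, 89.1 and 79.3 CPM with INDY, against 67.0, 61.0, 61.2 and 59.7 CPM with DMSO. All harmine libraries were below all water libraries, and all INDY libraries were above all DMSO libraries. The log2 fold change was -0.33 ± 0.07 with harmine (SE, edgeR adjusted p = 0.000274) and 0.49 ± 0.07 with INDY (SE, edgeR adjusted p = 1.55e-06). The effects differed by 0.82 (edgeR adjusted p = 3.50e-07), one of the 2 differences between compounds that passed 1.5-fold (38.7% of all genes tested did). The water and INDY libraries that stood apart, replicates 1 and 4 and replicates 1 and 3, carried the highest NFAT5 levels of their groups. DMSO replicate 1 was likewise the highest of its group (67.0 CPM). Without water replicates 1 and 4 the harmine effect was -0.24 and was no longer called (edgeR adjusted p = 0.0133). Without INDY replicates 1 and 3 the INDY effect was 0.37 and the difference between compounds 0.72, and both calls were kept. NFAT5 was also lower with DMSO than with water by -0.21 (edgeR adjusted p = 0.0408), which was not called. This vehicle difference was called without INDY replicates 1 and 3 (-0.21, edgeR adjusted p = 0.00681). It was -0.12 without water replicates 1 and 4 (edgeR adjusted p = 0.521). NFAT5 lies at chr16:69565094-69704666 on the plus strand. Of its transcript sequence, 7.11% of 100-base stretches also occur in an overlapping annotated gene on the same strand.

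**Figure D3:**
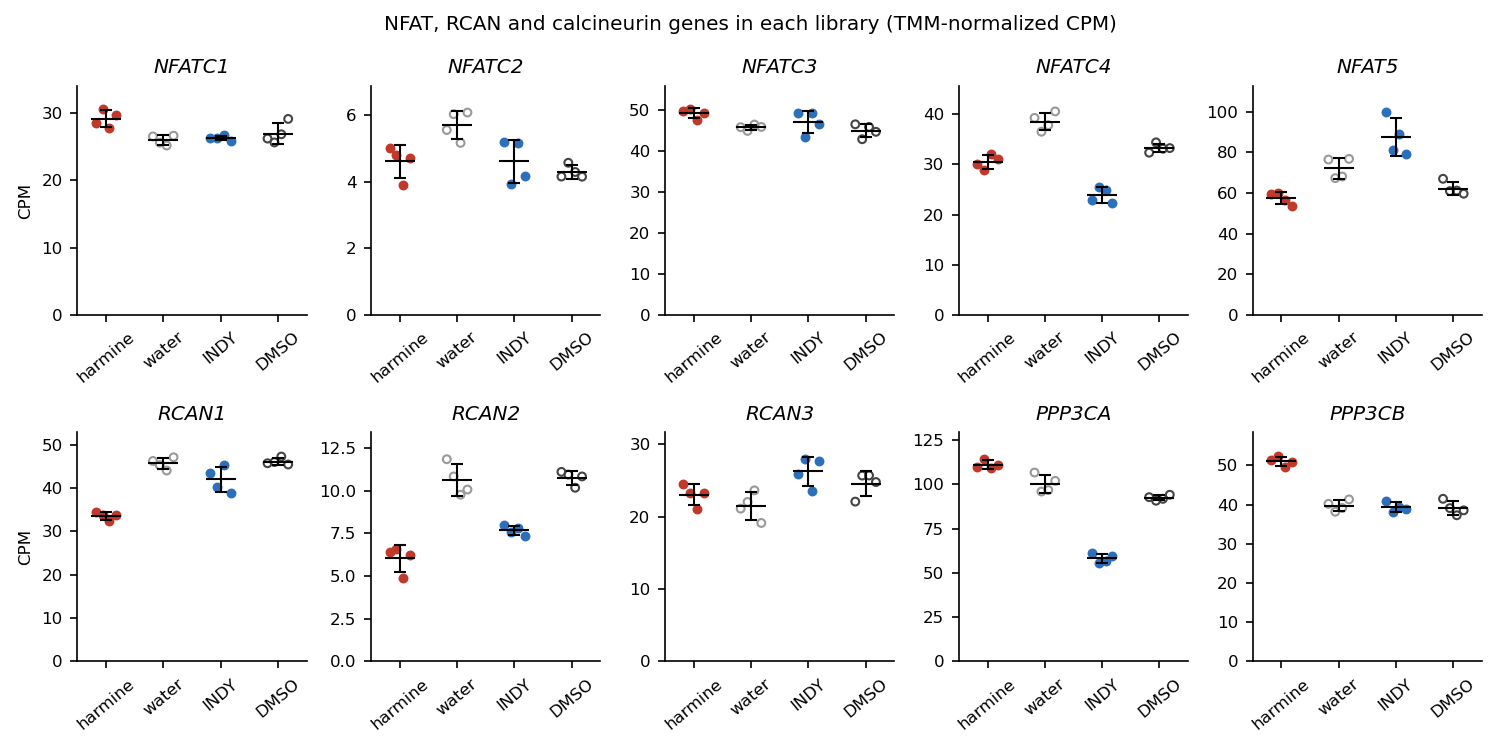
CPM of the 10 genes in every library (points) of the harmine, water, INDY and DMSO groups, with the mean and SD of 4 libraries as bars; every axis starts at 0. PPP3CA averages 58.3 CPM with INDY and 92.3 CPM with DMSO, and RCAN2 is lower with both compounds (6.03 CPM with harmine and 7.67 CPM with INDY) than with their vehicles.

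PPP3CA encodes the alpha catalytic subunit of calcineurin and had the highest level per kilobase of annotated exon among the 10 genes. It had 61.2, 55.6, 56.9 and 59.6 CPM with INDY, against 92.7, 90.7, 91.8 and 94.0 CPM with DMSO. The INDY libraries were far below all other libraries of the series, at 0.632 times the DMSO level (log2 fold change -0.66 ± 0.04, SE, edgeR adjusted p = 9.55e-12). With harmine it had 109.7, 114, 109 and 111 CPM, against 107, 95.9, 96.7 and 102 CPM with water. This was a small rise (log2 fold change 0.15 ± 0.04, SE, edgeR adjusted p = 0.00172). It was not called when harmine replicate 2, water replicate 2 or water replicate 3 was left out, with values of 0.11 to 0.12. The effects of the compounds differed by -0.81 (edgeR adjusted p = 1.97e-10), and with INDY, PPP3CA kept its lower level under all 27 alternative settings (-0.69 to -0.63).

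PPP3CB encodes the beta catalytic subunit, and here the harmine groups stood apart. It had 51.4, 52.3, 49.6 and 50.7 CPM with harmine, against 40.2, 38.2, 39.1 and 41.3 CPM with water. The log2 fold change of 0.36 ± 0.04 (SE, edgeR adjusted p = 1.31e-07) was a rise in every library. With INDY it averaged 39.4 ± 1.24 CPM, against 39.1 ± 1.76 CPM with DMSO (SD, n = 4 each). These levels overlapped, with a log2 fold change of 0.01 (95% interval -0.07 to 0.09, edgeR adjusted p = 0.824). The difference between the effects was -0.35 (edgeR adjusted p = 1.19e-05). The catalytic subunits thus differed in profile over the compounds, since PPP3CA had its largest change with INDY and PPP3CB with harmine.

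RCAN1, which lies on chromosome 21 as DYRK1A does, had a lower level with harmine in every library. It had 34.5, 33.9, 32.3 and 33.7 CPM with harmine, against 46.2, 45.3, 44.03 and 47.1 CPM with water. The log2 fold change was -0.44 ± 0.04 (SE, edgeR adjusted p = 5.13e-08), a level 26.4% lower. With INDY it had 43.4, 40.2, 45.3 and 39.0 CPM, against 45.7, 46.0, 47.3 and 45.4 CPM with DMSO. All INDY libraries were below all DMSO libraries, although INDY replicate 3 (45.3 CPM) was close to DMSO replicate 4 (45.4 CPM). The INDY effect was small (log2 fold change -0.13 ± 0.04, SE, edgeR adjusted p = 0.00722), and it lost its call in 14 of 27 alternative settings while ranging from -0.21 to -0.09. These included leaving out any single DMSO or harmine library, INDY replicate 2 or 4, or water replicate 2, at -0.14 to -0.09. Without INDY replicates 1 and 3, the highest INDY libraries, the INDY effect was -0.21 (edgeR adjusted p = 5.99e-05). The effect of harmine was the larger by 0.31 (edgeR adjusted p = 0.000175). Of RCAN1 transcript sequence, 10.3% of 100-base stretches also occur in an overlapping annotated gene on the same strand.

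RCAN2, a second calcineurin regulator with high expression in brain and muscle, had the largest harmine effect of the 10 genes. It had 6.39, 6.60, 4.91 and 6.21 CPM with harmine, against 11.8, 10.8, 9.76 and 10.1 CPM with water. It had 7.96, 7.56, 7.82 and 7.35 CPM with INDY, against 11.1, 10.9, 10.2 and 10.8 CPM with DMSO. Every treated library was below every vehicle library in both comparisons. The level with harmine was 0.568 times that with water (log2 fold change -0.82 ± 0.08, SE, edgeR adjusted p = 7.13e-08), and with INDY the log2 fold change was -0.49 ± 0.08 (SE, edgeR adjusted p = 1.66e-05). The effects differed by 0.33 (edgeR adjusted p = 0.0150), which was not called, except without harmine replicate 2 (0.40) or water replicate 3 (0.39) and in 3 other settings.

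RCAN3, the least studied of the RCAN genes, had overlapping groups in both comparisons. Its range was 21.0 to 24.5 CPM with harmine, against 19.1 to 23.6 CPM with water. It was 23.5 to 27.9 CPM with INDY, against 22.1 to 25.7 CPM with DMSO. Both log2 fold changes were 0.10 (95% intervals -0.05 to 0.24 with harmine and -0.05 to 0.24 with INDY), with edgeR adjusted p of 0.243 and 0.212. The harmine value was 0.01 without water replicates 1 and 4, and the INDY value was 0.19 without INDY replicates 1 and 3 (edgeR adjusted p of 0.926 and 0.0376). An antisense gene, RCAN3AS, overlaps RCAN3 on the opposite strand, and the strand setting of the counting is not given in the sources used here. The RCAN genes therefore did not move as one family, with RCAN1 and RCAN2 lower and RCAN3 called in neither direction.

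Likeness to RCAN1 over the 16 libraries was described by Pearson's r of log2 CPM among 13026 genes with a mean log2 CPM of at least 1. Libraries of one group share their treatment, so the points are not independent. The 5 most alike genes were DDX5 (r = 0.985), which encodes an RNA helicase, ABAT (0.980), which encodes GABA transaminase, KLHL7 (0.980), VCP (0.979), which encodes an unfolding ATPase, and TRPV3 (0.977), which encodes a cation channel. Among the other 9 genes described here, RCAN2 was the most alike by Pearson's r (0.917) and by Spearman's rho (0.868). PPP3CB had the lowest r (-0.866, rho -0.48), and NFATC3 had the lowest rho (-0.59, r -0.56).

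The protein partners of calcineurin, its regulatory subunit and the immunophilins among them, changed in both directions. Of 13 listed genes 12 were tested. With harmine 5 were higher and 5 lower (median log2 fold change 0.03), and with INDY 6 were higher and 4 lower (median 0.05). Of all genes tested, harmine placed 24.9% higher and 22.8% lower, and INDY 33.2% and 33.4%. MYOZ2, a calcineurin-binding sarcomere protein, was lower with both compounds at very low levels, averaging 0.404 CPM with harmine and 1.29 CPM with water, and 0.464 CPM with INDY and 1.12 CPM with DMSO (log2 fold changes -1.66 and -1.28, edgeR adjusted p of 6.11e-07 and 6.53e-06). AKAP5, an anchoring protein for calcineurin, was lower with harmine (-0.71, edgeR adjusted p = 1.22e-06), as was the scaffold HOMER3 (-0.37, edgeR adjusted p = 9.05e-06). With INDY, FKBP1A, the immunophilin through which tacrolimus blocks calcineurin, was at 172 ± 11.2 CPM against 312 ± 11.3 CPM with DMSO (SD, n = 4 each; log2 fold change -0.86, edgeR adjusted p = 1.29e-12). FKBP1A was called higher with harmine (0.33, edgeR adjusted p = 1.43e-06). PPP3R1, the calcineurin B regulatory subunit and named after its values were seen, was lower with harmine (-0.24, edgeR adjusted p = 4.24e-07). PPP3R1 was higher with INDY (0.18, edgeR adjusted p = 9.39e-06), and so moved opposite to PPP3CA in both.

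**Figure D4:**
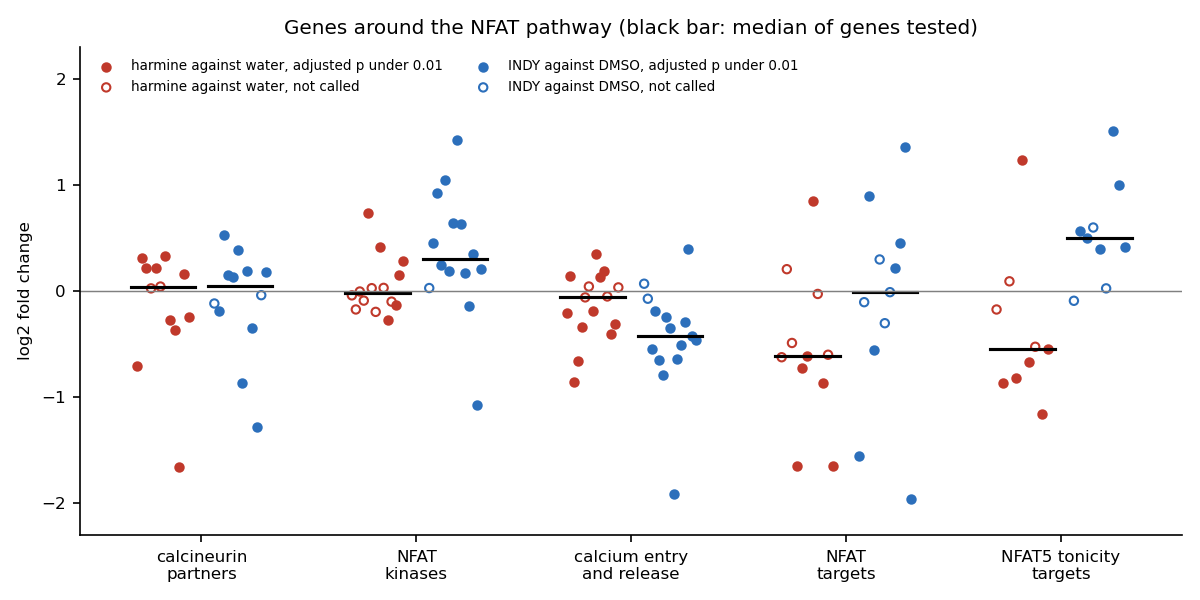
Log2 fold changes of the genes tested in 5 lists around the NFAT pathway, with harmine against water on the left and INDY against DMSO on the right of each pair; filled points passed an adjusted p of 0.01 and black bars are medians. The medians of the NFAT5 tonicity targets are -0.55 with harmine and 0.50 with INDY, and that of the NFAT kinases is 0.30 with INDY.

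Kinases that phosphorylate NFAT or act on its priming sites were called higher more often than lower with INDY. All 14 listed genes were tested. With INDY 11 were higher and 2 lower (median log2 fold change 0.30), where 33.2% of all genes were higher and 33.4% lower. With harmine 4 were higher and 2 lower (median -0.02), where 24.9% of all genes were higher and 22.8% lower. Without INDY replicates 1 and 3, 9 were higher with INDY. The count lower with harmine was 5 without INDY replicates 1 and 3 and 1 without water replicates 1 and 4. It was 1 without harmine replicate 4 or water replicate 1, 4 without INDY replicate 2 and 5 without INDY replicate 3. DYRK4 was at 59.2 ± 6.56 CPM with INDY and 22.1 ± 0.597 CPM with DMSO (SD, n = 4 each; log2 fold change 1.42, edgeR adjusted p = 1.50e-13), and at 31.0, 28.7, 30.3 and 28.9 CPM with harmine, against 22.3, 22.8, 21.6 and 22.4 CPM with water (0.41, edgeR adjusted p = 7.79e-06). DYRK1B was higher with both (0.73 with harmine and 1.05 with INDY, edgeR adjusted p of 0.000104 and 6.58e-07). PRKACA, a catalytic subunit of protein kinase A, was higher with harmine (0.29, edgeR adjusted p = 1.28e-07), and MAPK9, which encodes the kinase JNK2, was lower with INDY (-1.08, edgeR adjusted p = 2.19e-13). MAPK9 was called higher with harmine (0.15, edgeR adjusted p = 0.00736), a call lost in 17 of 27 alternative settings. DYRK1A, the stated target of both compounds and named after its values were seen, had log2 fold changes of -0.09 with harmine (edgeR adjusted p = 0.153) and 0.25 with INDY (edgeR adjusted p = 0.000372).

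Genes of calcium entry, release and removal, which set the signal that calcineurin reads, were called lower more often than higher with INDY. Of 16 listed genes 15 were tested, with 1 higher and 12 lower with INDY (median log2 fold change -0.42), and 4 higher and 7 lower with harmine (median -0.06). The shares of all genes were 33.2% higher and 33.4% lower with INDY, and 24.9% higher and 22.8% lower with harmine. The count higher with harmine was 2 without water replicates 1 and 4, and also without harmine replicate 2 or 3 or water replicate 2 or 3 alone, and the count higher with INDY was 2 without INDY replicate 2. ORAI3, a plasma membrane calcium channel, averaged 3.88 ± 0.726 CPM with INDY and 14.5 ± 0.964 CPM with DMSO (SD, n = 4 each; log2 fold change -1.92, edgeR adjusted p = 9.37e-13). The inositol trisphosphate receptors ITPR3 (-0.79, edgeR adjusted p = 2.33e-14) and ITPR2 (-0.65, edgeR adjusted p = 3.94e-11) were also lower with INDY. With harmine the calcium pump ATP2B4 (-0.86, edgeR adjusted p = 2.46e-12), the receptor ITPR1 (-0.66, edgeR adjusted p = 6.98e-11) and the calcium sensor STIM2 (-0.41, edgeR adjusted p = 3.95e-06) were lower. ATP2B4, ITPR1 and ITPR2 were called lower with both compounds. STIM2 was higher with INDY (0.39, edgeR adjusted p = 2.21e-06). ORAI3 was higher with harmine (0.35, edgeR adjusted p = 0.000781), but not called without water replicates 1 and 4 (0.32, edgeR adjusted p = 0.0116).

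Classical targets of NFATC1 to NFATC4 are known mostly from lymphocytes, endothelium, bone and muscle, and only 11 of 20 listed genes were expressed enough to test. The T cell cytokine genes IL2, IL3, IL4, IL5, IL13 and IFNG, with CD40LG, FASLG and MYH7, did not pass the filter. Of the 11, 1 was higher and 5 lower with harmine (median log2 fold change -0.61), and 4 were higher and 3 lower with INDY (median -0.01). The INDY counts were near the shares of all genes (33.2% higher and 33.4% lower), while those with harmine stood beside 24.9% higher and 22.8% lower. With INDY replicates 1 and 3 left out, the count higher with harmine was 2 and the count lower with INDY was 2. The count higher with harmine was also 2 without INDY replicate 4 or water replicate 2. CXCL8, which encodes the neutrophil chemoattractant interleukin 8, had 2.15, 2.01, 1.86 and 1.85 CPM with harmine, against 6.88, 6.03, 5.93 and 5.92 CPM with water (log2 fold change -1.65, edgeR adjusted p = 1.23e-10). VCAM1, a leukocyte adhesion molecule, averaged 0.895 ± 0.138 CPM with harmine and 2.81 ± 0.0949 CPM with water, and 0.792 ± 0.198 CPM with INDY and 3.07 ± 0.210 CPM with DMSO (SD, n = 4 each), with log2 fold changes of -1.65 and -1.96 (edgeR adjusted p of 2.00e-08 and 7.26e-10). PTGS2, which encodes the inducible prostaglandin synthase COX-2, was lower with harmine (-0.87, edgeR adjusted p = 1.89e-08), at 2.66 ± 0.169 CPM against 4.85 ± 0.244 CPM with water (SD, n = 4 each). With INDY it was higher (0.46, edgeR adjusted p = 1.08e-05). TNF (1.36, edgeR adjusted p = 0.00180) was higher and ACP5 (-1.56, edgeR adjusted p = 0.000440) lower with INDY, both below 0.5 CPM in every library. ACP5 was not called without INDY replicates 1 and 3 (-1.31, edgeR adjusted p = 0.0153). RCAN1 and these targets thus did not share one profile. CXCL8 and VCAM1 were lower with both compounds, as RCAN1 was. PTGS2 was lower with harmine and higher with INDY, and TNF was higher with INDY.

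**Figure D5:**
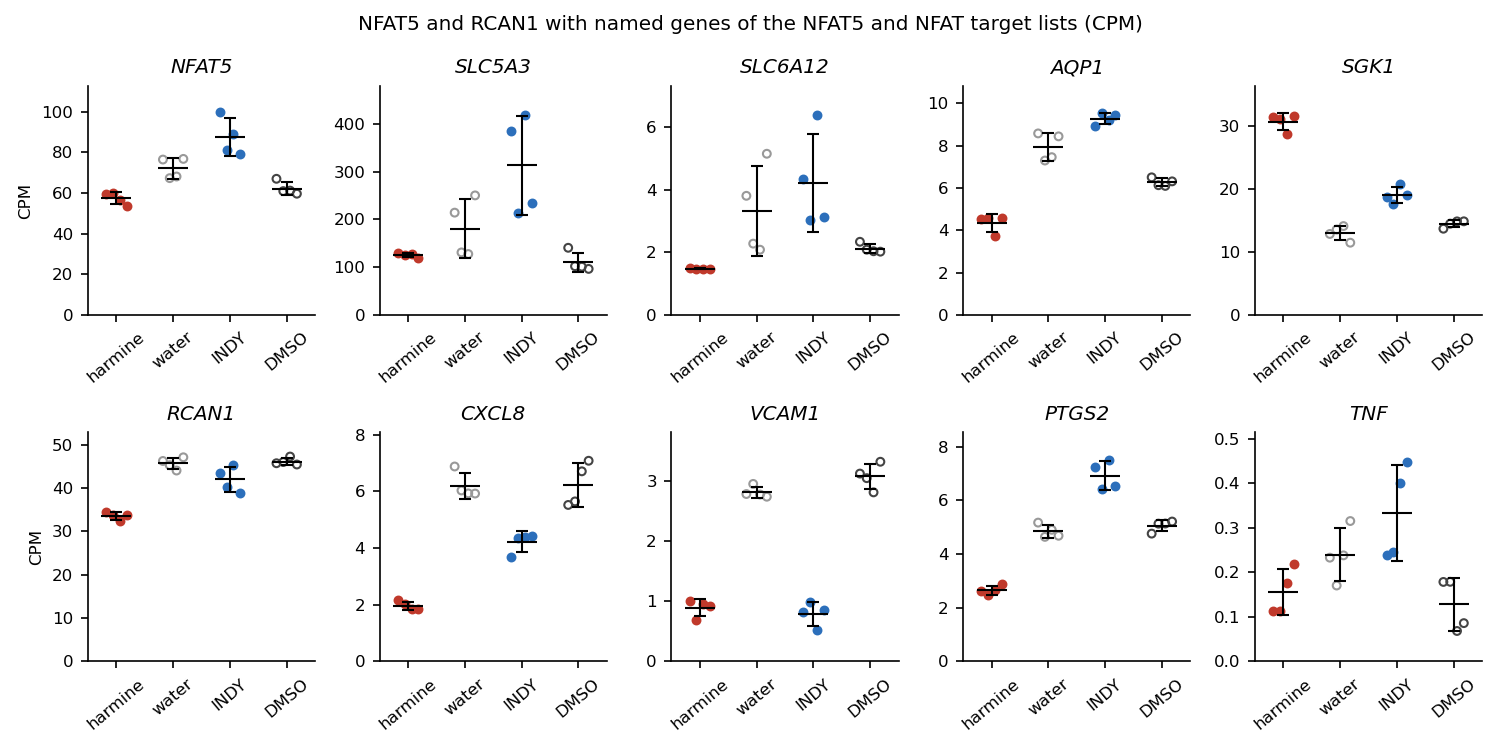
CPM in every library (points) with the mean and SD of 4 libraries (bars), for NFAT5 with 4 genes of its tonicity target list in the upper row and RCAN1 with 4 genes of the NFAT target list in the lower row. SLC5A3 has 2 separate levels within the water group and within the INDY group, and CXCL8, VCAM1 and PTGS2 are lower with harmine than with water.

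Tonicity targets of NFAT5 moved in the same direction as NFAT5 for most genes called with each compound taken alone. Of 10 listed genes 9 were tested. With INDY 6 were higher and 0 lower (median log2 fold change 0.50), and the count lower was also 0 at an unadjusted p under 0.05 in edgeR and with DESeq2. With harmine 1 was higher and 5 were lower (median -0.55). Only 3 of the 9 genes were called both lower with harmine and higher with INDY, as NFAT5 was. Among all genes tested 33.2% were higher and 33.4% lower with INDY, and 24.9% were higher and 22.8% lower with harmine. In DMSO against water 0 of the 9 were higher and 2 lower (median -0.34), against 1.58% and 2.71% of all genes tested. Each compound was set against its own vehicle, and these vehicle levels differed for genes of the list. The part of this gap in the opposite directions was not tested. SLC5A3, which encodes the myo-inositol transporter, had 385, 214, 419 and 235 CPM with INDY, against 141, 102, 101 and 96.5 CPM with DMSO (log2 fold change 1.51, edgeR adjusted p = 4.81e-06). It had 129, 126, 127 and 119 CPM with harmine, against 214, 131, 128 and 250 CPM with water (-0.53, edgeR adjusted p = 0.0445), which was not called. Without water replicates 1 and 4 this harmine value was -0.04 (edgeR adjusted p = 0.884). Without INDY replicates 1 and 3 the INDY value was 1.03 (edgeR adjusted p = 0.000189). In DMSO against water SLC5A3 was at -0.71 (edgeR adjusted p = 0.0400), which was not called. That vehicle value ranged from -0.85 to -0.23 over 27 alternative settings. It was called without INDY replicates 1 and 3 (-0.71, edgeR adjusted p = 0.00827). Its highest libraries within these groups were again INDY replicates 1 and 3 and water replicates 1 and 4, the ones with the highest NFAT5 in their groups. Within DMSO, replicate 1 was the highest for SLC5A3 (141 CPM) and also for NFAT5.

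SLC6A12, the betaine transporter gene, had 4.34, 3.03, 6.41 and 3.14 CPM with INDY, against 2.34, 2.09, 2.04 and 2.02 CPM with DMSO (1.00, edgeR adjusted p = 0.00152). It had 1.51, 1.47, 1.47 and 1.47 CPM with harmine, against 3.81, 2.28, 2.09 and 5.15 CPM with water (-1.16, edgeR adjusted p = 0.00114). The harmine libraries were nearly level, while water replicates 1 and 4 stood well above replicates 2 and 3. Without water replicates 1 and 4 its harmine effect was -0.56 (edgeR adjusted p = 0.0613), and without INDY replicates 1 and 3 its INDY effect was 0.54 (edgeR adjusted p = 0.0698), so neither call was kept. The water channel AQP1 kept its call with each compound without those libraries. It averaged 9.27 ± 0.263 CPM with INDY and 6.26 ± 0.187 CPM with DMSO, and 4.35 ± 0.414 CPM with harmine and 7.94 ± 0.658 CPM with water (SD, n = 4 each). Its log2 fold changes were 0.57 with INDY (edgeR adjusted p = 6.33e-07) and -0.87 with harmine (edgeR adjusted p = 1.01e-08). They were 0.60 without INDY replicates 1 and 3 and -0.76 without water replicates 1 and 4. AQP1 was also called lower in DMSO than in water (-0.34, edgeR adjusted p = 0.00476). Without water replicates 1 and 4 this vehicle call was lost (-0.23, edgeR adjusted p = 0.153). SGK1, a salt-responsive kinase gene that many other signals also induce, was the exception on the list with harmine, at 31.3, 31.0, 28.6 and 31.5 CPM, against 12.8, 13.5, 14.1 and 11.4 CPM with water (1.24, edgeR adjusted p = 7.37e-12). Over the list, 5 genes were higher with INDY without INDY replicates 1 and 3, and 3 were lower with harmine without water replicates 1 and 4. The part of those libraries in the NFAT5 result and in the levels of its targets was not tested beyond leaving them out.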

How the data were processed

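Poly(A)+ RNA of U2OS cells was sequenced in 16 paired-end libraries made with a stranded kit. The deposited values are estimated counts for each gene. The authors obtained them with Salmon 1.1 on GRCh38 transcripts and summed them to genes. The submitters' notes also name edgeR 3.28.1. The reads were not reprocessed. The table has 59081 genes, of which 37914 had a count.

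Values were made whole by rounding, passed through filterByExpr (20446 genes kept) and scaled with TMM (factors 0.982 to 1.022). They were fitted in one model of 4 groups with edgeR 4.0.16 in R 4.3.3 (glmQLFit, glmQLFTest; biological coefficient of variation 0.0561), and 4 contrasts were tested. The p-values were adjusted by Benjamini and Hochberg's method across all 20446 genes, and 0.01 was the threshold. A prior count of 2 was added for log2 CPM. Standard errors were derived as the absolute log2 fold change divided by the square root of edgeR's F statistic. The 95% intervals used this error and a t quantile. On simulated counts of 19675 genes with 200 changed, the harmine comparison recovered 82.7% of 2-fold and 73% of 1.5-fold changes. In the data a far larger share was called with harmine (24.9% higher and 22.8% lower). These rates are therefore not those of the test on the data, and none was given for changes below 1.5-fold. Gene positions and exon lengths came from GENCODE on GRCh38, and promoters from RefSeq.

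The 10 genes and the pathway lists were chosen with earlier results of these data known. Named genes were the 10 genes, in each list the 3 largest changes per compound among genes that passed (every gene where 5 or fewer passed), and the 5 genes most like RCAN1. A gene that this rule also names is not reported here. Alternatives were DESeq2 1.42.0, limma voom 3.58.1, other factors and filters, an adjusted p of 0.05, a 1.5-fold minimum, each compound's own 8 libraries, a replicate block, each library left out, and 2 pairs of libraries left out. The counts of called list genes without those pairs were chosen after seeing the data. No replicate differed from another by as little as sampling noise, with a chi-square per gene of 2.16 to 27.0 over 24 pairs.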

Additional observations from a re-analysis of the deposited data

Results flagged for a closer look

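The effect of INDY against DMSO differed from that of harmine against water for 5 of the 10 genes, by edgeR's test of the difference itself at an adjusted p under 0.01, with the compounds at different doses and in different vehicles. Among all genes tested 26.4% differed upwards and 28.1% downwards by the same test, so 5 of 10 is close to the share of all genes. NFAT5 had the larger positive difference, 0.82 on the log2 scale, and was lower in 4 of 4 harmine libraries than in all water libraries and higher in 4 of 4 INDY libraries than in all DMSO libraries. RCAN1 had a difference of 0.31, being lower in all 4 libraries of each compound. PPP3CA had a difference of -0.81, PPP3CB one of -0.35 and NFATC1 one of -0.20. The NFATC1 value lost its call in 14 of 26 alternative settings.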

How the results depend on the processing

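Over 27 settings there were 800 values of the 10 genes in the comparisons with a compound. Of these 725 kept their call, 48 lost it, 27 gained one and 0 changed sign after being called. Leaving out 1 library at a time, the numbers of genes called higher were 1 to 3 with harmine, 1 to 2 with INDY and 2 to 4 for the difference between compounds, and those called lower were 4 to 5 with harmine, 3 to 4 with INDY and 0 to 2 for DMSO against water. With a minimum of 1.5-fold, 0 genes were higher and 1 lower with harmine, 0 higher and 1 lower with INDY, 1 higher and 1 lower for the difference, and 0 lower for DMSO against water. The difference called 4 genes higher with DESeq2 and with an adjusted p under 0.05. For DMSO against water, 4 genes were lower with an adjusted p under 0.05. That number was 2 with DESeq2, no filter, a minimum of 10 counts, upper-quartile factors or the 8 vehicle libraries alone. It was 3 without INDY replicates 1 and 3, and 0 without water replicates 1 and 4.

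Same-numbered libraries showed little shared deviation (r of -0.05 to 0.09), and the main model did not pair them. Correlations this small do not settle whether samples with one number belong together. With the replicate number as a block, RCAN1 with INDY (-0.13, edgeR adjusted p = 0.0114) and NFATC4 in DMSO against water (edgeR adjusted p = 0.0134) were not called, leaving 0 genes lower in DMSO, and RCAN2 was called for the difference (0.33, edgeR adjusted p = 0.00702). Each library correlated best with its own number in 0 of 4 cases for harmine and water, in 3 of 4 for INDY and DMSO and in 2 of 4 for DMSO and water.

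NFATC2 at 3.90 to 6.08 CPM was the least precise of the 10 genes. The difference between compounds has no value from one compound's own 8 libraries. The doses were single and unequal, RNA levels do not show NFAT phosphorylation, location or calcineurin activity, and gene counts do not separate RCAN1 transcripts.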
